A study of Mus musculus with 2 samples.

Results

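The RNAs of 9 enzymes and enzyme subunits of the citric acid cycle and its feeder enzyme pyruvate carboxylase were followed in C3H10 cells after knockdown of the long noncoding RNA MALAT1. The genes were Pcx, Cs, Idh3a, Ogdh, Suclg1, Sdha, Sdhb, Fh1 and Mdh2. They were taken by symbol from the deposited table of 46095 genes, and all 9 were found and passed the filter of at least 10 counts summed over both libraries. C3H10 is a mouse mesenchymal line, labelled as fibroblast precursors with adipogenic ability and with the strain given as C57BL/6. One library came from cells given a negative control antisense oligonucleotide (ASO) and 1 library from cells given an ASO against MALAT1, each at 100 nM. Both cultures were then induced with isobutyl-1-methylxanthine, dexamethasone, troglitazone and insulin and kept in insulin alone, and the study places them at day 6 of differentiation. Both therefore received troglitazone, which activates the receptor PPAR-γ. Which ASO against MALAT1 was sequenced is not given in the sources used here.

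The citric acid cycle runs in the mitochondrial matrix. It joins acetyl-CoA to oxaloacetate to form citrate and returns to oxaloacetate through a series of oxidations that pass electrons to the respiratory chain. Pyruvate carboxylase makes oxaloacetate from pyruvate and so refills the cycle. In fat cells this matters because citrate leaves the mitochondrion to supply acetyl-CoA for fatty acid synthesis, and because oxaloacetate is a source of the glycerol backbone of triglycerides.

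Totals were 58147539 counts for control and 61653549 for knockdown, and 17356 genes were tested. The targeted Malat1 had 170402 counts in the control library against 45396 after knockdown. With 1 library per group no difference has a replicate check and no p-value is given. Levels are given as CPM, counts scaled by TMM to a library of 1000000. The log2 fold change compares knockdown with control after scaling, and its 95% interval covers counting error only, so it describes these libraries and not the conditions. A gene was called lower or higher when the libraries differed at least 1.5-fold.

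All 9 genes were lower in the MALAT1-knockdown library, by a modest amount. Their median log2 fold change was -0.42, against -0.0031 over all 17356 genes tested. Only Pcx was called, so 1 of 9 was at least 1.5-fold lower, where 11.9% of all genes tested were. Among the 8251 genes with a mean of at least 1000 counts, to which all 9 belong, 2.84% were at least 1.5-fold lower. The 95% counting interval lay below 0 for 9 of 9 genes, for 26.4% of all genes tested and for 31.8% of those with a mean of at least 1000 counts. Among these better counted genes, the log2 fold changes of the 9 lay between percentile 1.49 for Pcx and percentile 11.5 for Ogdh. If cultures differed from each other by a coefficient of variation of 0.1, 5 of the 9 intervals would lie below 0, and at 0.2 it would be 0 of 9. In bulk RNA, fewer differentiated cells and less RNA per cell cannot be told apart.

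**Figure D1:**
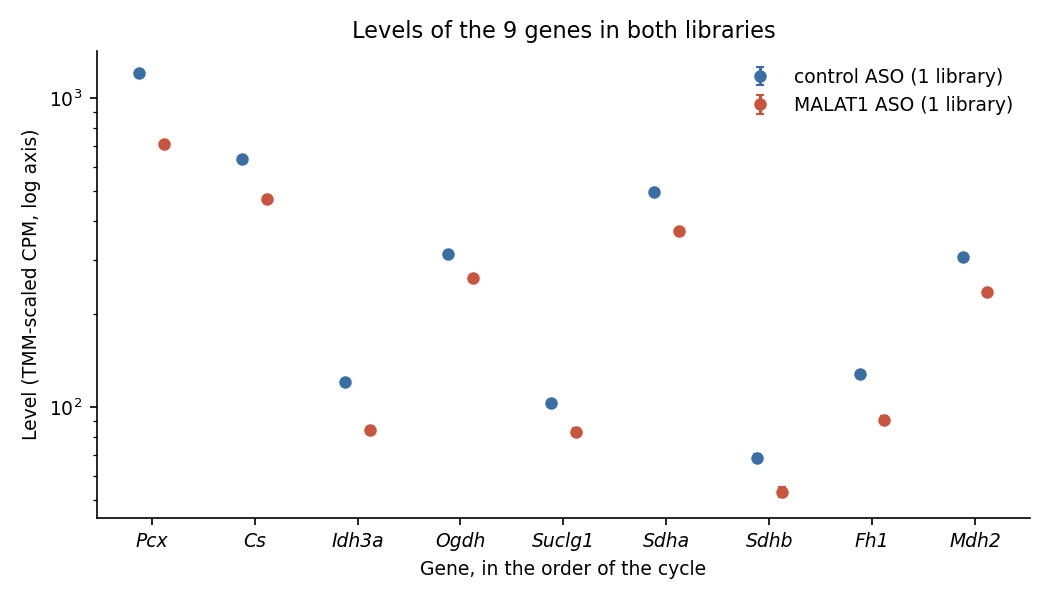
Level of each gene in CPM, on a log axis, with 1 point per library (blue, control ASO; red, MALAT1 ASO) and 95% counting intervals that are mostly smaller than the points. Each of the 9 genes sat lower in the MALAT1-knockdown library, with the widest gap at Pcx, from 1206 to 710 CPM.

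**Figure D2:**
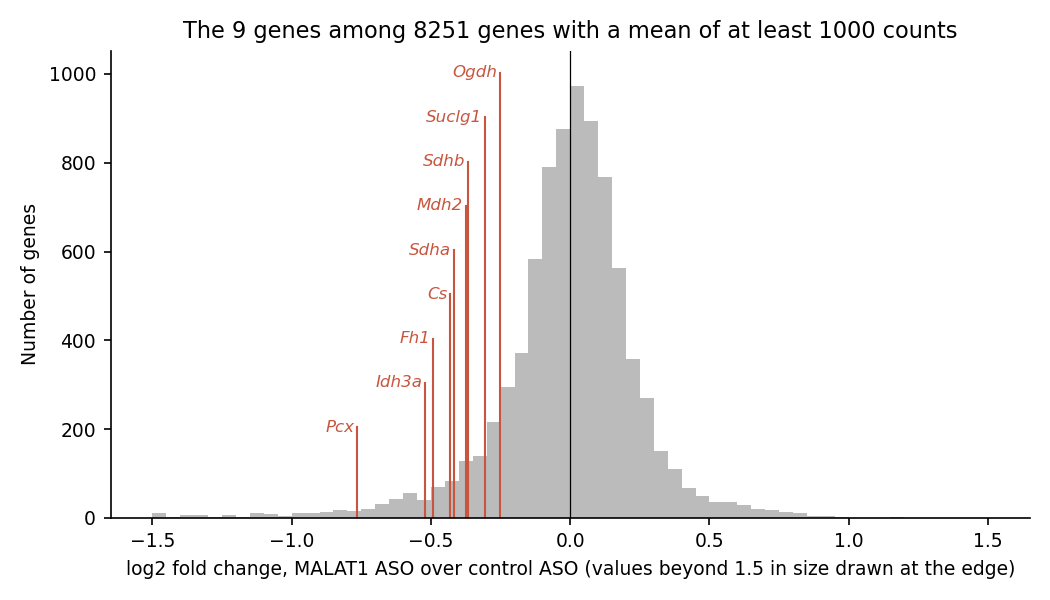
Histogram of the log2 fold change over the 8251 genes with a mean of at least 1000 counts, with a red line at each of the 9 genes (line height has no meaning). All 9 lay left of the median of these genes, which was 0.013, and from Ogdh at -0.25 to Pcx at -0.76.

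Pyruvate carboxylase was the most abundant of these RNAs and differed most. Pcx had 69592 counts in the control library against 44097 after knockdown, or 1206 and 710 CPM. The knockdown library thus stood at 58.9% of the control level (95% limits 58.2% to 59.6%), with log2 fold change -0.76 (-0.78 to -0.75). Ranked by counts, Pcx was gene 69 of the control library and gene 140 of the knockdown library. Of the scaled counts on the 9 genes, Pcx took 35.7% in control cells (exact Clopper-Pearson interval 35.5% to 35.9%) and 30.1% in knockdown cells (29.8% to 30.3%).

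GENCODE M21 places Pcx at chr19:4510472-4621752, plus strand, on GRCm38, the build that the submitters' processing notes name. RefSeq gives it 2 start sites, far apart, and counts per gene cannot tell transcripts from these starts apart. The 250 bases before each start are shown because Pcx was the one gene called, and because they differ in sequence content. They are RefSeq sequence on GRCm38.p6, plus strand, and the capitals mark CCAAT or its reverse complement ATTGG.
Pcx upstream start, chr19:4510222-4510471: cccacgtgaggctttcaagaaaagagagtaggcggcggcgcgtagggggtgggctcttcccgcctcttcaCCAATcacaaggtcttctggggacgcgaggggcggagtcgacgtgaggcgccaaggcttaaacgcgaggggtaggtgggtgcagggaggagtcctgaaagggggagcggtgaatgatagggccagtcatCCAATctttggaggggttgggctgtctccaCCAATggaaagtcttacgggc
Pcx downstream start, chr19:4594069-4594318: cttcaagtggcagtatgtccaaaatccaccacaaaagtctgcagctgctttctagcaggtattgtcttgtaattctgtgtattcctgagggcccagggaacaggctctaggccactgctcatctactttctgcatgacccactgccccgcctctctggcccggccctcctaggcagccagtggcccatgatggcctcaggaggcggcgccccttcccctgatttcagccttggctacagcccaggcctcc
The upstream window held CCAAT in 3 places and the downstream window in 0. RefSeq windows were found for 8 of the 9 genes, all but Idh3a, and 6 of these 8 had CCAAT or ATTGG in at least 1 window (Pcx, Cs, Ogdh, Sdha, Sdhb and Fh1). Among all 27025 genes with windows, 37.5% did, although a gene with several starts has more windows to match. GGGCGG, the GC box, was in windows of 6 of 8 genes against 35.4% of all genes. The E-box CACGTG was in windows of 2 of 8, Pcx and Ogdh, against 6.86%. Both Pcx and Ogdh have more than 1 window, and so more places to match. The nuclear receptor motif AGGTCA, searched on both strands, was in windows of 2 genes, Sdhb and Fh1, against 15.8% of all genes. The longer AAGGTCA, which contains it and is the core of the element bound by estrogen-related receptors, was in windows of 0 of 8 genes and of 4.70% of all genes. The ETS site CCGGAAG was likewise in 0 of 8, against 7.83%. These matches describe letters in short windows and say nothing of binding.

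Citrate synthase, which condenses acetyl-CoA with oxaloacetate, was the next most counted. The window before its RefSeq start is shown as the cycle's entry step, with CCAAT or ATTGG in capitals.
Cs, chr10:128337477-128337726, plus strand: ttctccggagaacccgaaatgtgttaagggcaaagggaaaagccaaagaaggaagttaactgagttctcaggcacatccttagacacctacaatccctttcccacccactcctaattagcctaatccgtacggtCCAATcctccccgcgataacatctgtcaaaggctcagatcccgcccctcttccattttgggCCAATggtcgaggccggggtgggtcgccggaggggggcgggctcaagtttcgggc
It held the motif in 2 places. Cs (chr10:128337734-128362479) had 36600 counts in the control library against 29247 after knockdown, or 634 and 471 CPM, with log2 fold change -0.43 (95% limits -0.45 to -0.41). The ratio of Pcx to Cs counts within a library does not depend on scaling. It was 1.90 in the control library against 1.51 after knockdown, a log2 change of -0.33 (-0.36 to -0.31).

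Idh3a (chr9:54586334-54604661) is the catalytic subunit of the NAD-dependent isocitrate dehydrogenase, a regulated step of the cycle. It had 6959 counts in the control library against 5224 after knockdown, or 121 and 84.1 CPM, with log2 fold change -0.52 (95% limits -0.57 to -0.47). After Pcx this was the lowest value among the 9. Its partner subunits Idh3b and Idh3g were also lower, with log2 fold changes of -0.60 and -0.49. The ratio of Idh3a to Idh3g moved by -0.03 on the log2 scale (-0.10 to 0.04), so the libraries did not differ in it beyond counting error. Idh2, the NADP-dependent mitochondrial enzyme, had 21383 and 22902 counts and a log2 fold change of -0.0075 (-0.03 to 0.02). The ratio of Idh3a to Idh2 was 0.325 in the control library against 0.228 after knockdown, a log2 change of -0.51 (-0.57 to -0.45).

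Ogdh (chr11:6291633-6356642) encodes the first enzyme of the oxoglutarate dehydrogenase complex, which releases carbon dioxide and forms succinyl-CoA. It was the least different of the 9, with 18041 counts in the control library against 16307 after knockdown, or 313 and 262 CPM. Its log2 fold change was -0.25 (95% limits -0.28 to -0.22). The complex's other subunits lay further down. Dlst, the transferase core, showed a log2 fold change of -0.34 and Dld, the dehydrogenase that this complex shares with pyruvate dehydrogenase, one of -0.62. The ratio of Ogdh to Dld was 0.979 in the control library against 1.26 after knockdown, a log2 change of 0.37 (0.32 to 0.41). Ogdhl, a relative of Ogdh, was higher in knockdown cells but weakly counted, with 584 and 802 counts and a log2 fold change of 0.35 (0.20 to 0.51).

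Suclg1 (chr6:73248382-73276911) is the subunit common to both forms of succinyl-CoA ligase, which makes succinate together with GTP or ATP. It had 5932 counts in the control library against 5160 after knockdown, or 103 and 83.1 CPM, with log2 fold change -0.31 (95% limits -0.36 to -0.25). Its partners differed from each other. Sucla2, of the ATP-forming enzyme, showed a log2 fold change of -0.38, and Suclg2, of the GTP-forming enzyme, one of -0.14. The ratio of Sucla2 to Suclg2 was 1.58 in the control library against 1.33 after knockdown, a log2 change of -0.25 (-0.32 to -0.17).

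Sdha (chr13:74322254-74350280, minus strand) and Sdhb (chr4:140961203-140979193) are the flavoprotein and iron-sulfur subunits of succinate dehydrogenase, which belongs to the cycle and to the respiratory chain at once. Sdha had 28642 and 23100 counts, or 496 CPM in the control library against 372 after knockdown, with log2 fold change -0.42 (95% limits -0.44 to -0.39). Sdhb had 3951 and 3297 counts, or 68.5 and 53.1 CPM, with log2 fold change -0.37 (-0.43 to -0.30). The ratio of Sdha to Sdhb moved by -0.05 (-0.12 to 0.02), within counting error. The membrane anchors Sdhd and Sdhc showed log2 fold changes of -0.37 and -0.23. The ratio of Sdha to Sdhc moved by -0.19 (-0.24 to -0.13). Of the 4 assembly factors of the enzyme, 2 had an interval below 0. Called lower or higher were 0 of the 4, against 11.9% and 8.28% of all genes tested. The best counted of them, Sdhaf2, showed a log2 fold change of -0.04 (-0.11 to 0.02).

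Fh1 (chr1:175600374-175625635, minus strand), fumarase, which hydrates fumarate to malate, had 7383 counts in the control library against 5648 after knockdown, or 128 and 90.9 CPM. Its log2 fold change was -0.49 (95% limits -0.54 to -0.44). Mdh2 (chr5:135778480-135790398), the mitochondrial malate dehydrogenase that closes the cycle, had 17636 and 14641 counts, or 306 and 236 CPM, with log2 fold change -0.38 (-0.41 to -0.34). Its cytosolic counterpart Mdh1, which passes reducing equivalents between compartments, was lower by more, with log2 fold change -0.56. The ratio of Mdh2 to Mdh1 was 0.781 in the control library against 0.887 after knockdown, a log2 change of 0.18 (0.14 to 0.23). The other cytosolic counterparts, Aco1 and Idh1, showed log2 fold changes of -0.49 and -0.29.

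The 9 genes did not differ alike. Of their 36 pairs, 29 had a 95% interval of the change in ratio that excluded 0, each for counting error alone and without adjustment for the number of pairs. Pcx stood apart from all 8 others, with changes from -0.24 against Idh3a to -0.51 against Ogdh. In the order from Pcx through Idh3a, Fh1, Cs, Sdha, Mdh2, Sdhb and Suclg1 to Ogdh, some neighbours did not differ beyond counting error. These were Idh3a and Fh1 with a change of -0.03 (-0.10 to 0.04), Cs and Sdha with -0.01 (-0.05 to 0.02), Mdh2 and Sdhb with -0.0074 (-0.08 to 0.07), Sdhb and Suclg1 with -0.06 (-0.15 to 0.03), and Suclg1 and Ogdh with -0.06 (-0.12 to 0.0065). Without Pcx, the median of the other 8 was -0.40 and 0 of 8 were called.

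Levels of different genes were compared per length, as CPM per kilobase of annotated exon. Pcx was highest in control cells at 254, followed by Sdha at 120, Cs at 110, Mdh2 at 85.8 and Ogdh at 57.3. The lower end held Fh1 at 37.7, Sdhb at 30.6, Idh3a at 23.8 and Suclg1 at 22.3. In knockdown cells the order was the same except that Suclg1, at 18.0, stood above Idh3a, at 16.6. Neighbours in these orders did not overlap in their counting intervals, but the order rests on the lengths used. With the longest coding transcript of each gene instead, Pcx was again highest, at 291 in control and 171 in knockdown cells. In control cells Cs at 217 stood above Mdh2 at 210 and Sdha at 171. At the lower end of control cells, Suclg1 at 67.7 stood above Sdhb at 60.0 and Fh1 at 48.5. With this length the intervals of Fh1 and Idh3a overlapped in control cells. Those of Mdh2 at 162 and Cs at 161 overlapped in knockdown cells.

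The other mitochondrial enzymes and subunits of the cycle were mostly lower as well. Of 10 reported here, 8 had a 95% interval below 0, Idh2 lay at 0 within counting error and Ogdhl above it, with a median of -0.35. The 2 called lower were Dld and Idh3b, or 2 of 10 against 11.9% of all genes tested and 2.84% of those with a mean of at least 1000 counts. Of these subunits, 0 of 10 were at least 1.5-fold higher, against 8.28% of all genes tested and 1.43% of those with a mean of at least 1000 counts. Over these 19 genes the median was -0.38, with 17 intervals below 0.

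**Figure D3:**
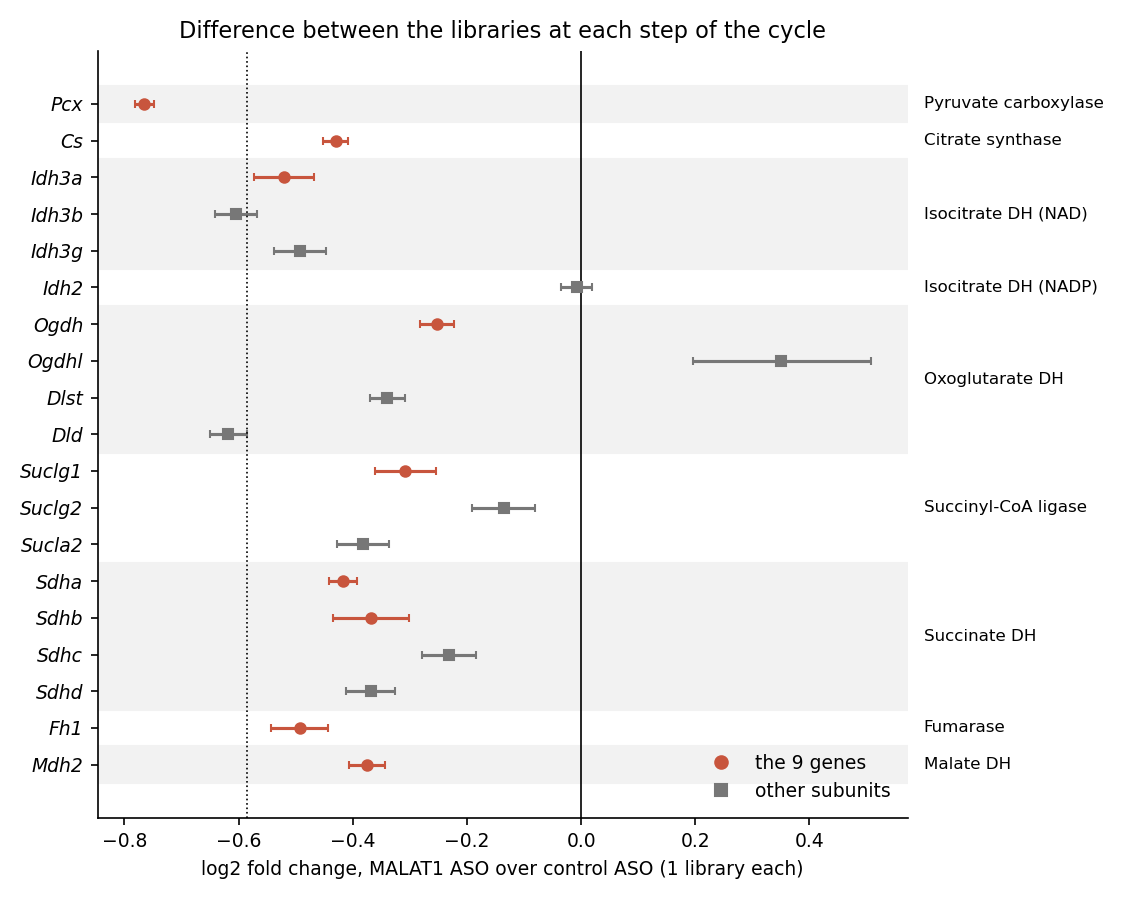
log2 fold change (MALAT1 ASO over control ASO, 1 library each) of the 9 genes (red circles) and of the other cycle subunits (grey squares) by step of the cycle, with 95% counting intervals. The dotted line marks 1.5-fold lower. Pcx, Idh3b and Dld lay beyond it, Idh2 at 0, and Ogdhl was the one subunit above 0.

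Pyruvate enters the cycle through pyruvate carboxylase or through the pyruvate dehydrogenase complex, which makes acetyl-CoA. Of 4 subunits of that complex 4 lay below 0. Of these 4, 2 were called lower, against 11.9% of all genes tested and 2.84% of those with a mean of at least 1000 counts. Dlat, its transferase core, had 8889 counts in the control library against 5846 after knockdown, with log2 fold change -0.71, and Pdhb one of -0.62. Pdha1, which pairs with Pdhb in the first enzyme of the complex, had 25355 and 25497 counts and a log2 fold change of -0.10 (95% limits -0.12 to -0.07). The ratio of Pcx to Pdha1 was therefore 2.74 in the control library against 1.73 after knockdown, a log2 change of -0.67 (-0.70 to -0.64). That of Pcx to Dlat moved by less, from 7.83 to 7.54, a log2 change of -0.05 (-0.10 to -0.003).

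The kinases that switch pyruvate dehydrogenase off lay on both sides of 0. Pdk2 and Pdk1 were called lower, at -0.74 and -0.61. Pdk4, a kinase raised by fasting and by PPAR ligands, had 16596 and 19662 counts and a log2 fold change of 0.14 (95% limits 0.11 to 0.17). The phosphatase Pdp1 showed a log2 fold change of 0.23, under the fold line. Over the 7 kinases, phosphatases and their regulator Pdpr, 4 lay below 0 and 3 above, with a median of -0.24. Of these 7, 2 were called lower, against 11.9% of all genes tested, and 0 higher, against 8.28%.

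Carriers bring pyruvate into the matrix and exchange cycle intermediates. Of 7, 2 were called lower and 1 higher, against 11.9% and 8.28% of all genes tested. Slc25a10, which exchanges malate and succinate, had 14992 counts in the control library against 8959 after knockdown, with log2 fold change -0.85 (95% limits -0.89 to -0.81). The pyruvate carrier subunits Mpc2 and Mpc1 showed log2 fold changes of -0.53 and -0.32. The other calls rested on few counts. Slc25a1, the citrate carrier, had 112 and 51 counts, and Slc25a13, an aspartate-glutamate carrier, 316 and 516.

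Of 14 enzymes that feed or drain the cycle, 10 had a 95% interval below 0, while Me2, Me3 and Got1 had intervals that spanned 0, and the median was -0.47. Of the 14, 5 were called lower, against 11.9% of all genes tested. Gpt2, the mitochondrial alanine transaminase, had 8735 and 4804 counts, with log2 fold change -0.97. Me1 (malic enzyme, which turns malate into pyruvate and NADPH) had -0.73, and Acly, which splits exported citrate into acetyl-CoA, -0.61. Pck1, which draws oxaloacetate into glyceroneogenesis, had only 93 and 12 counts and a log2 fold change of -3.01 (95% limits -4.06 to -2.19). Pccb, a subunit of propionyl-CoA carboxylase, was called at -0.60. Got2, the mitochondrial aspartate transaminase, lay above 0 at 0.17.

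Adipocyte markers were lower in the knockdown library, as the cycle genes were, and most progenitor markers lay within the 1.5-fold line. Of 14 adipocyte markers, 13 were tested, 12 had a 95% interval below 0 and 11 were called lower, against 11.9% of all genes tested, with a median of -1.23. Their summed level was 7643 CPM in control cells and 3462 CPM in knockdown cells. One of these calls, Slc2a4, lay within counting error at -0.71 (-1.69 to 0.22). Lep had 1 and 0 counts and Slc2a4 26 and 17, so these 2 defining markers were near absent from both libraries. Of 12 progenitor and fibroblast markers, 11 were tested, 10 with an interval above 0 and a median over the list of 0.19, and 1 was called higher, Cd34 with 19 and 69 counts, against 8.28% of all genes tested. Their summed level was 17415 CPM in control and 18850 CPM in knockdown cells, and Dlk1 had 0 counts in both libraries. Of 10 markers of cells outside the line, 5 had 0 counts in both libraries, and the list summed to 3.54 and 2.77 CPM. Pcx, at -0.76, differed by less than most of the tested adipocyte markers. Pparg at -0.57, Plin4 at -0.33 and Slc2a4 differed by less than Pcx, and the other tested markers by more. Among the latter was Adipoq, a secreted adipocyte protein. The ratio of Pcx to Adipoq was 1.80 in the control library against 2.61 after knockdown, a log2 change of 0.54 (95% limits 0.51 to 0.57). The part of these markers in the differences of the cycle genes was not tested.

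**Figure D4:**
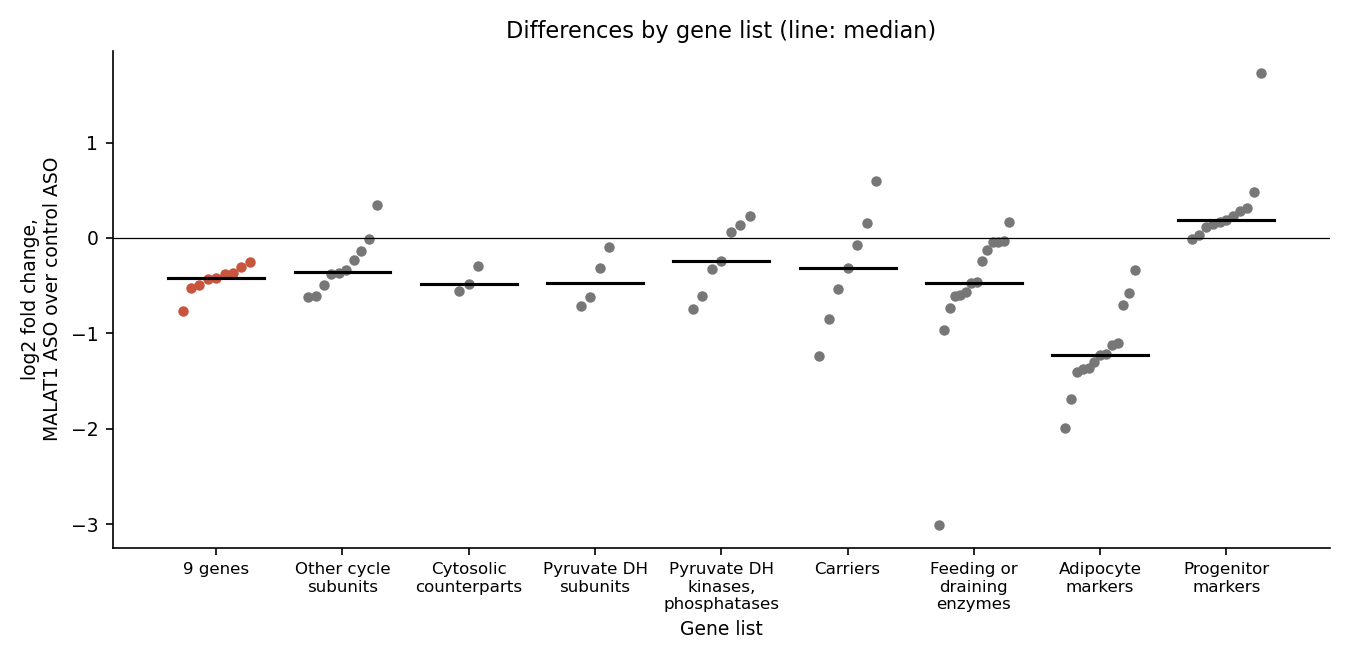
log2 fold change of every tested gene (points) by gene list, with a line at each list's median. The 9 genes spread from -0.76 to -0.25 around -0.42, the adipocyte markers lay around -1.23, and the progenitor markers around 0.19.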

How the data were processed

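RNA-seq counts of 2 C3H10 libraries, 1 per ASO, were analysed. Total RNA was depleted of rRNA and made into libraries, and the authors deposited whole-number counts of reads per gene symbol, without normalization. The submitters' processing notes name HISAT2 and GRCm38. The counting tool, the annotation and the handling of strand and of reads with several matches are not given in the sources used here, and reads of duplicated molecules would make intervals too narrow. No exon of the 9 genes overlapped another gene's in GENCODE M21, and 0 transcripts of other genes matched theirs at 95% identity over 200 bases (BLAST+ 2.17.0).

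Genes with at least 10 summed counts entered the TMM scaling of edgeR 4.0.16 in R 4.3.3, with factors of 0.992 for control and 1.01 for knockdown. The log2 fold change used a prior count of 0.5. Tests in edgeR and DESeq2 require replicates, so no test across cultures was made. Intervals are exact Clopper-Pearson limits at 95% (scipy 1.17.1), or normal limits for ratios of 2 genes. The limits of the log2 fold change were run on simulated counts that held counting error only. Variation between cultures, duplicated reads and the limits for ratios were not simulated. A floor of 3 counts was preset for a count of 0 and is not the Clopper-Pearson limit. Exon lengths are those of GENCODE M21, and promoter windows those of RefSeq. Named genes are the 9 genes, those of lists written by hand from general knowledge, and Malat1. The genes and lists were chosen with earlier results of these data known, and 2 listed genes are not reported here. The alternatives were other scalings, filters, a prior count of 2, other fold lines and preset variation between cultures. The split by mean count, the second length and the symbols of mitochondrial genes were chosen after seeing the data.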

Additional observations from a re-analysis of the deposited data

How the results depend on the processing

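Other scalings were library totals, size factors from DESeq2 1.42.0 and upper-quartile factors. The sign of each of the 9 log2 fold changes was the same under these, both other filters and a prior count of 2. The largest shift of a value or of the median of the 9 was 0.022. Under library totals Pcx was at -0.743, just outside its main counting interval of -0.782 to -0.748, so that interval leaves out the choice of scaling. The number of the 9 called lower followed the fold line, with 1 at 1.5-fold, 7 at a log2 line of 0.32 and 0 at 2-fold, where all genes tested gave 2066, 3480 and 1045. Of all genes, 4445 were called lower with at least 1 count and 1241 when each library needed 10, since these filters change which weakly counted genes are tested. With a preset coefficient of variation between cultures, 5 of the 9 intervals lay below 0 at 0.1 (Pcx, Idh3a, Fh1, Cs and Sdha) and 0 at 0.2. No paired analysis was possible because each group has 1 library. Counting depth was not the limit for the 9 genes, whose smallest count was 3297, while the missing replicate was.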

Other observations

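Pyruvate carboxylase carries biotin, and genes of biotin enzymes and of attaching or recycling biotin were followed as well. Of 8, 8 had a 95% counting interval below 0 and 3 were called lower (Acacb, Mccc2 and Pccb), against 11.9% of all genes tested, with a median of -0.57. Acacb, the mitochondrial outer membrane form of acetyl-CoA carboxylase, had 4569 counts in the control library against 1723 after knockdown, with log2 fold change -1.51 (95% limits -1.59 to -1.43). Acaca, the cytosolic form that commits acetyl-CoA to fatty acid synthesis, had -0.58, and Mccc2, of leucine breakdown, -0.82. Hlcs, which attaches biotin to carboxylases, had 1092 and 800 counts and a log2 fold change of -0.56. Btd, which frees biotin for reuse, had one of -0.07. The list shares Pcca and Pccb with that of the feeding and draining enzymes.

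Nuclear regulators of mitochondrial genes were mixed, with 5 of 9 tested below 0 and a median of -0.10, and 2 of 9 called lower, Ppargc1b and Ppard, against 11.9% of all genes tested. With genes of at least 1 count included the median was -0.19. Ppargc1b, a coactivator of mitochondrial genes, had 2770 and 1685 counts, with log2 fold change -0.82 (95% limits -0.91 to -0.74). Esrra, the estrogen-related receptor that binds many citric acid cycle promoters, had -0.39 (-0.47 to -0.32). Ppard, with 118 and 52 counts, was at -1.28, while Ppargc1a, with 107 and 158, was at 0.45. Nrf1, Gabpa and Tfam were at 0.07, 0.12 and -0.10.

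Other mitochondrial genes are given side by side with the cycle genes, without a test of the difference. The 77 mitochondrial ribosomal proteins had a median of -0.20, with 68 below 0. Of these 77, 2 were called lower, against 11.9% of all genes tested and 2.84% of those with a mean of at least 1000 counts. The 13 messenger RNAs of the mitochondrial genome had a median of -0.06, with 7 below 0. Of these 13, 0 were called lower and 1 higher, against 11.9% and 8.28% of all genes tested. The 1 called higher was the weakly counted ATP8, at 1.07.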
